A study of Mus musculus with 38 samples.

Results

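The genes described here are 32 target genes of p53, the transcription factor encoded by Trp53, including Trp53 itself. They were found by name, or by an older name (Zmat3 also as Wig1, Aen as Isg20l1), among the probes of Agilent whole mouse genome arrays. All 32 were found, on 56 of 41174 probes, and each was read from its brightest probe among 27962 gene names. They fall into 5 regulators (Trp53, Mdm2, Ccng1, Trp53inp1 and Zmat3), 6 genes of cell cycle arrest, 6 of growth signaling and metabolism, 10 of cell death and 5 of DNA repair and nucleotide supply.

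The arrays measured tumor cells of the MMTV-PyMT hyperplasia transplant model, in which the polyoma middle T oncogene is driven by a mammary tumor virus promoter. Hyperplasias of 3-week-old female mice that also carried actin-GFP were transplanted into cleared mammary fat pads of 3-week-old FVB/n females, and GFP-positive cells were sorted, so that GFP marked donor origin in every group. In the chemotherapy experiment, 6 untreated tumors (labeled Control) were compared with 6 residual tumors (labeled Regressed tumor), taken 10 days after the first dose, and 4 relapsed tumors (labeled Resistant tumor), taken 10 days after dose 4. Doses of docetaxel (25 mg/kg), doxorubicin (5 mg/kg) and cyclophosphamide (120 mg/kg) were given every 21 days from 8 weeks after transplantation. In the progression experiment, whose RNA went through an additional round of amplification, no mouse received chemotherapy. It comprised 5 adenomas (5-week outgrowths), 6 carcinomas (18-week outgrowths), 6 samples of disseminated cells from the lungs of mice with 18-week outgrowths, each pooled from 3 to 6 mice, and 5 samples of lung metastases, taken 8 to 10 weeks after an 18-week tumor had been removed. The host lung keeps its own cells, and no group was a cultured line or a single clone.

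In unstressed cells p53 is kept low by Mdm2, a ubiquitin ligase that marks it for degradation and is itself a p53 target. DNA damage, such as that caused by doxorubicin and cyclophosphamide, stabilizes the protein, which then binds response elements near its targets and raises their transcription. The targets include genes that stop the cell cycle, repair DNA, restrain growth signaling or start apoptosis, and others that return p53 to its low level.

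A p53 response element is built from 2 copies of a 10-base unit, here called the p53 decamer, whose pattern reads the same on both strands. RefSeq promoter windows (250 bases before to 50 after a start site, GRCm38.p6) were at hand for 24 of the 32 genes, as 35 windows. An exact decamer lay in 11 of these windows (31.4%), against 8.36% of all 32851 windows in the table. The 10 genes with one were Trp53, Cdkn1a, Mdm2, Ccng1, Bax, Sesn1, Ei24, Polk, Aen and Gadd45a. The Aen windows overlap and share the same decamer, so it entered this share more than once. Another Cdkn1a window, at chr17:29093519-29093818, held none. Decamers side by side, with at most 1 mismatch, occurred in windows of Cdkn1a and Ccng1, and in 0.067% of all windows. The 3 stretches below are shown because Cdkn1a, Mdm2 and Ccng1 carry much of what follows. They lie upstream of start sites, at chr17:29090896-29090957 (plus strand), chr10:117710925-117710954 (minus strand) and chr11:40755452-40755491 (minus strand). They read 5′ to 3′ on the gene's strand, with decamers in capitals. In Cdkn1a and Ccng1 the capitals of the side-by-side pair include 1 copy with a mismatch.
Cdkn1a: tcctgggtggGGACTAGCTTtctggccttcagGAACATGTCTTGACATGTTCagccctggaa
Mdm2: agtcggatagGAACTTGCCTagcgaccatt
Ccng1: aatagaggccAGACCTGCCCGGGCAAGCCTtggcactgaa
The windows of Phlda3, Eda2r and Sesn2 held no exact decamer. A match describes the letters of a window and was not tested as a site of binding.

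Every value below is a log2 ratio of the sample (Cy5) to a universal mouse reference RNA (Cy3), without dye swaps, so levels were compared only between samples and not between genes. Spots well above background made up 48.4 to 78.9% of an array. The share was 48.4 to 75.5% in adenomas (median 61.6%), and 67.5 to 76.7% in carcinomas (median 74.2%). It was 63.8 to 76.0% in disseminated cells (median 70.2%) and 70.2 to 78.9% in metastases (median 74.6%). Of the 32 genes, 30 or 31 were well above background in every tumor of each chemotherapy group. In the progression experiment 26 were so in every adenoma, and 30 to 32 in every sample of each other group. The mean log2 ratio of 9 mammary epithelial markers lay between 4.36 and 4.96 in all 16 chemotherapy tumors. In the progression groups its median was 3.56 in adenomas, 4.09 in carcinomas, 1.79 in disseminated cells and 3.66 in metastases. The lowest values were 0.31 in metastases replicate 4 and 0.42 in disseminated replicate 3. The mean of 8 macrophage markers was 5.11 in carcinoma replicate 6, against at most 0.16 in the other carcinomas. The median correlation with the other arrays of the group was 0.760 for carcinoma replicate 6, 0.775 for metastases replicate 4 and 0.713 for disseminated replicate 6, where the range over all arrays ran to 0.959. In sorted bulk cells, fewer cells of a type and less RNA per cell cannot be told apart. The labels give no culture or litter, so p-values measure the spread between these samples.

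The first question was which p53 targets were higher in tumor cells that had survived the first dose. Residual tumors had the higher level in 26 of the 32 genes, against 48.8% of all genes, and the median log2 change was 0.46 over the 32 and -0.0038 over all genes. 5 genes rose (limma, adjusted p below 0.05 over all genes) and none fell. They were Eda2r, Phlda3, Cdkn1a, Mdm2 and Sesn2, or 15.6% of the 32, where 0.204% of all genes passed the test. Their log2 changes ran from 1.02 to 1.86. Trp53 itself differed by -0.04 (adjusted p = 0.917). 17 of the genes, all higher, had an unadjusted p below 0.05, against 9.16% of all genes. In 11 of the 32 every residual tumor lay above every untreated tumor, which was so for 0.565% of all genes.

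**Figure D1:**
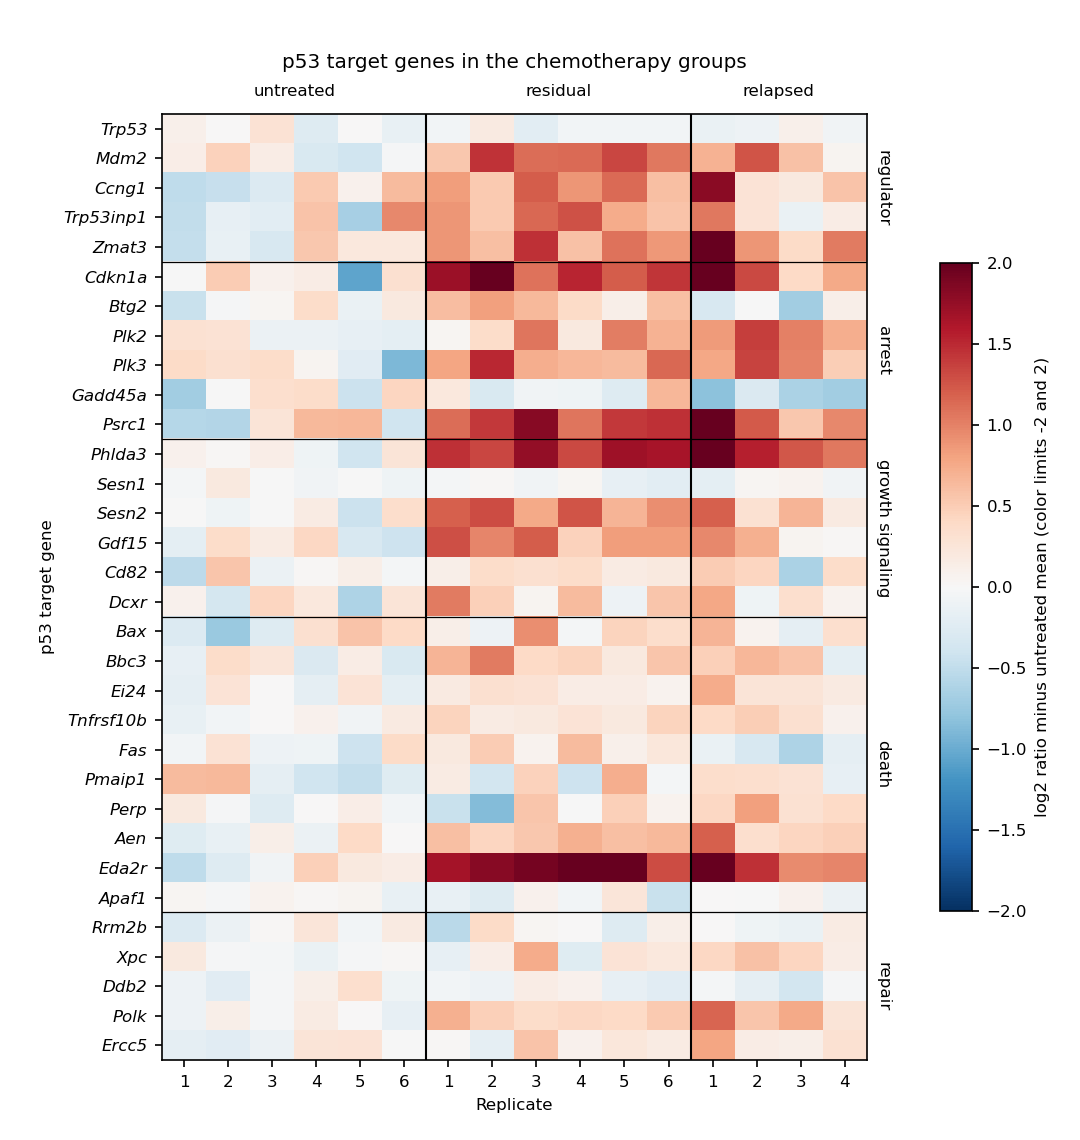
Log2 ratio of each of the 32 p53 target genes (rows, by role) in each tumor (columns, by group and replicate), minus the mean of the 6 untreated tumors, with colors limited to -2 and 2. Eda2r, Phlda3, Cdkn1a and Psrc1 are red in all 6 residual tumors, and Trp53 and Sesn1 stay near white. Relapsed replicate 1 is the highest of the relapsed group in 18 of 32 genes.

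Among the regulators, Mdm2 was the gene that rose. Its log2 ratio lay between -0.14 and 0.72 in untreated tumors (median 0.31) and between 0.79 and 1.70 in residual tumors (median 1.38). In relapsed replicates 1 to 4 it was 0.95, 1.52, 0.84 and 0.31. Residual tumors thus lay entirely above untreated tumors, while relapsed replicate 4 fell within the untreated range. The rise in residual tumors was 1.10 (standard error 0.196, adjusted p = 0.0316), or 2.15-fold. At relapse Mdm2 stood 0.65 above untreated tumors (adjusted p = 0.422) and differed from residual tumors by -0.46 (95% interval -0.92 to 0.01). With 1 tumor left out at a time Mdm2 stayed past the test in 2 of 12 cases, without untreated replicate 2 or residual replicate 1. Another Mdm2 probe rose by 0.58 in residual tumors (adjusted p = 0.0442 over all probes).

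The other regulators did not pass the test in a chemotherapy comparison. Zmat3, an RNA-binding zinc finger protein, was 0.92 higher in residual (adjusted p = 0.259) and 1.14 higher in relapsed tumors, and all 6 residual tumors lay above the untreated ones. Ccng1, a cyclin that directs a phosphatase to Mdm2, was 0.86 higher in residual and 0.71 higher in relapsed tumors. Its relapsed values were 0.59, -0.94, -1.02 and -0.64, so replicate 1 stood apart from the other 3. Trp53inp1, a cofactor of p53 in the death response, was 0.86 higher in residual but only 0.34 higher in relapsed tumors. Trp53 ranged from 0.02 to 0.57 in untreated tumors, from 0.07 to 0.45 after the first dose and from 0.15 to 0.37 at relapse, and the groups overlapped.

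Cdkn1a encodes p21, the inhibitor of cyclin-dependent kinases through which p53 halts the cycle. Its log2 ratio ran from -0.92 to 0.65 in untreated tumors (median 0.26) and from 1.24 to 2.29 in residual tumors (median 1.62). Relapsed replicates 1 to 4 had 2.20, 1.47, 0.54 and 0.90. Residual tumors again lay above every untreated tumor, and relapsed replicate 3 fell within the untreated range. The rise in residual tumors was 1.52 (standard error 0.286, adjusted p = 0.0394). At relapse the difference from untreated tumors was 1.13 (adjusted p = 0.319), and from residual tumors -0.39 (95% interval -1.06 to 0.29). Untreated replicate 5, at -0.92, lay far below the next untreated tumor at 0.13, and without it the change was 1.31 (adjusted p = 0.0726). Leaving out 1 tumor at a time, Cdkn1a stayed past the test in only 1 of 12 cases, without untreated replicate 6.

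Of the other arrest genes none passed the test. Psrc1, which binds spindle microtubules, came close, with untreated tumors between -0.52 and 0.72 (median -0.01) and residual tumors between 1.13 and 1.89 (median 1.47). Its relapsed tumors had 2.37, 1.28, 0.60 and 1.02. The difference in residual tumors was 1.38 (adjusted p = 0.0707) and at relapse 1.26 (adjusted p = 0.280). Plk3 and Plk2, polo-like kinases of the stress response, were 0.91 and 0.57 higher in residual tumors and 0.90 and 0.99 higher in relapsed tumors. All 4 relapsed tumors lay above the untreated range for both kinases. Btg2, an antiproliferative cofactor of mRNA decay, was 0.53 higher in residual but differed by -0.22 in relapsed tumors. Gadd45a, a sensor of genotoxic stress, differed by 0.03 in residual and by -0.61 in relapsed tumors (adjusted p = 0.477).

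**Figure D2:**
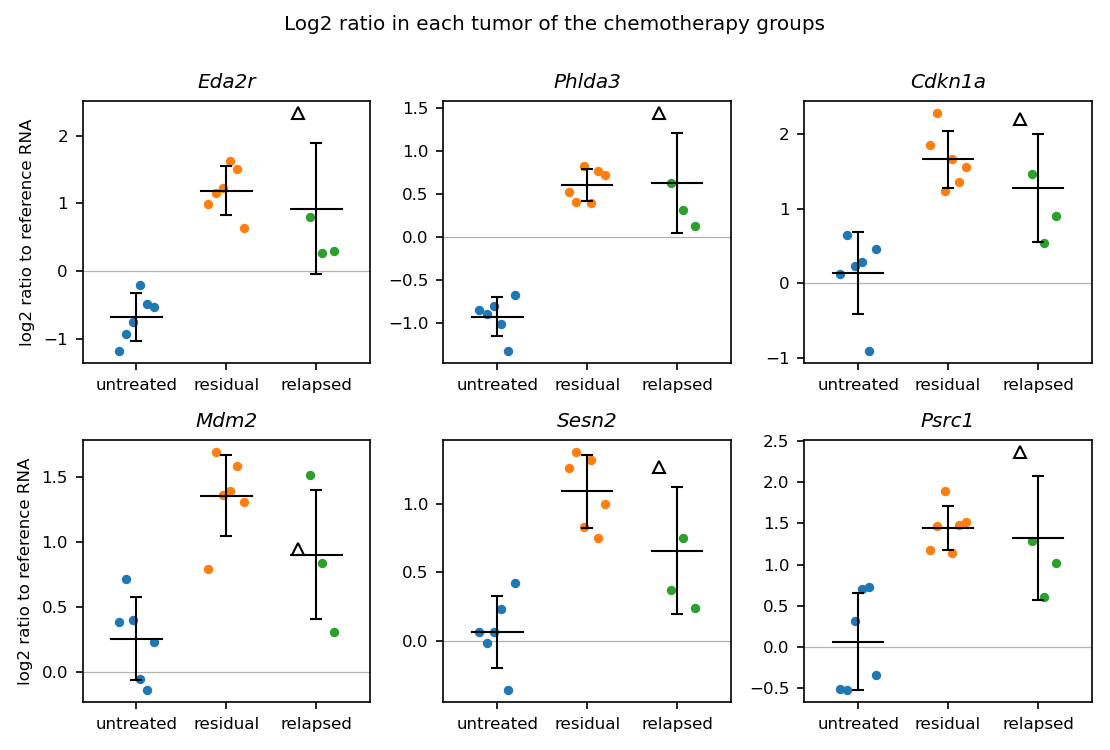
Log2 ratio to reference RNA in each tumor of the 3 chemotherapy groups for the 5 genes that rose in residual tumors and for Psrc1; points are tumors, open triangles relapsed replicate 1, and black lines the mean with the SD (n = 6, 6 and 4). For all 6 genes the residual tumors lie above every untreated tumor, while relapsed tumors reach into the untreated range for Cdkn1a, Mdm2, Sesn2 and Psrc1.

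In growth signaling, Phlda3 and Sesn2 rose. Phlda3, which competes with Akt for membrane lipids, lay between -1.33 and -0.68 in untreated tumors (median -0.88) and between 0.39 and 0.83 in residual tumors (median 0.62). In relapsed replicates 1 to 4 it was 1.44, 0.62, 0.31 and 0.12. Every residual and every relapsed tumor lay above every untreated tumor. In residual tumors the rise was 1.53 (standard error 0.180, adjusted p = 0.00303). At relapse it was 1.55 (standard error 0.201, adjusted p = 0.0128). The relapsed and residual groups differed by 0.02 (95% interval -0.40 to 0.45).

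Sesn2, a stress-induced inhibitor of mTORC1 signaling, lay between -0.36 and 0.42 in untreated tumors (median 0.06) and between 0.75 and 1.38 in residual tumors (median 1.13). Relapsed replicates 1 to 4 had 1.27, 0.37, 0.75 and 0.24, and replicates 2 and 4 fell within the untreated range. The rise in residual tumors was 1.02 (standard error 0.173, adjusted p = 0.0250), and the difference at relapse 0.59 (adjusted p = 0.397). Another Sesn2 probe differed by only 0.38 in residual tumors (adjusted p = 0.471 over all probes), so the probes disagreed in size. The call was kept in 5 of 12 cases with 1 tumor left out. Its paralog Sesn1 differed by -0.07 and -0.04.

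Gdf15, a secreted factor of the TGF-beta family, was 0.94 higher in residual tumors (adjusted p = 0.0745), with no overlap of the groups, and 0.44 higher at relapse. Its relapsed tumors had 0.20, -0.06, -0.70 and -0.74, the last 2 within the untreated range of -1.17 to -0.34. Dcxr, a reductase of sugars and dicarbonyls, was 0.44 and 0.27 higher. Cd82, a tetraspanin known as a suppressor of metastasis, was 0.26 and 0.17 higher. Neither passed the test.

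Among the 10 genes of cell death, Eda2r rose alone, and its rise was the largest of the 32 in this fit. It encodes a death-domain receptor of the TNF receptor family that binds ectodysplasin A2. Untreated tumors had between -1.18 and -0.20 (median -0.63) and residual tumors between 0.63 and 1.63 (median 1.19). Relapsed replicates 1 to 4 had 2.33, 0.79, 0.26 and 0.30. Both treated groups lay above all untreated tumors. The rise in residual tumors was 1.86 (standard error 0.296, adjusted p = 0.0171), or 3.64-fold, and the difference at relapse 1.60 (standard error 0.331, adjusted p = 0.192). The calls of Eda2r and Phlda3 in residual tumors were kept in 12 of 12 cases with 1 tumor left out. Other Eda2r probes were well above background in 0 and 6 of the 16 tumors and did not check this value. The size of the Eda2r rise depended on the processing, from 0.96 to 3.03 over the alternatives run.

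The remaining death genes moved less in residual tumors. Bbc3 (Puma), a BH3-only activator of mitochondrial death, was 0.55 higher in residual and 0.38 higher in relapsed tumors. Aen, a nuclease of apoptotic nuclei, was 0.59 and 0.61 higher, and all 6 residual tumors lay above the untreated ones. The array files place the brightest Aen probe on chromosome 4 (mm7) and the other 2 on chromosome 7. Of these, the probe well above background in all 16 tumors gave 0.48 and 0.41, and the dimmer gave 0.10 and -0.08. Fas, a death receptor, differed by 0.29 in residual and by -0.31 in relapsed tumors. Tnfrsf10b, the mouse TRAIL receptor, was 0.28 and 0.32 higher. Bax, the pore-forming Bcl-2 family member, was 0.28 and 0.23 higher, and Ei24, a protein of the endoplasmic reticulum, 0.19 and 0.36. Pmaip1 (Noxa), another BH3-only protein, differed by 0.09 and 0.20, Apaf1, the core of the apoptosome, by -0.10 and -0.01, and Perp, a desmosomal protein, by -0.04 and 0.48.

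None of the 5 repair genes passed the test. Polk, a translesion DNA polymerase, was 0.48 higher in residual (adjusted p = 0.154) and 0.68 higher in relapsed tumors (adjusted p = 0.165). In both treated groups every tumor lay above the untreated range of -1.25 to -0.93. The nucleotide excision repair genes Xpc, Ddb2 and Ercc5 differed by 0.16, -0.05 and 0.15 in residual tumors and by 0.40, -0.15 and 0.34 at relapse. Rrm2b, the p53-inducible subunit of ribonucleotide reductase, differed by -0.04 and -0.01.

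Next, the same genes were compared at relapse. Both treated groups were taken 10 days after their last dose, and from different tumors. A rise held since the first dose therefore cannot be told apart from a new response to dose 4. Relapsed tumors were also taken later, and the age of the untreated tumors is not given. The comparisons share their groups, so each gene's values stand side by side and no overlap between comparisons is read as a result. Relapsed tumors exceeded untreated tumors in 24 of 32 genes, against 54.0% of all genes, with a median of 0.37 where that of all genes was 0.01. Phlda3 was the only 1 that rose (3.12% of the 32), where 0.0179% of all genes passed the test. An unadjusted p below 0.05 was reached by 18 of the genes, 17 of them higher, against 7.70% of all genes. Every relapsed tumor lay above every untreated tumor in 6 genes (Eda2r, Phlda3, Plk2, Plk3, Polk and Perp), and 1.09% of all genes did so.

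As a share of the difference in residual tumors, that at relapse was 101% for Phlda3, 85.7% for Eda2r, 74.6% for Cdkn1a, 58.7% for Mdm2 and 57.8% for Sesn2. Among genes short of the test it was 99.3% for Plk3, 90.8% for Psrc1, 46.5% for Gdf15 and 39.0% for Trp53inp1. These shares are ratios of 2 uncertain differences, and for Btg2, Fas, Gadd45a and Perp the sign turned. No gene passed the test between relapsed and residual tumors (limma, lowest adjusted p = 0.114), while 0.279% of all genes did. 6 genes had an unadjusted p below 0.05, 1 higher and 5 lower in relapsed tumors, against 7.77% of all genes, and the equal-variance test without moderation called 0 after adjustment. The median over the 32 genes was -0.03, against 0.02 over all genes.

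**Figure D3:**
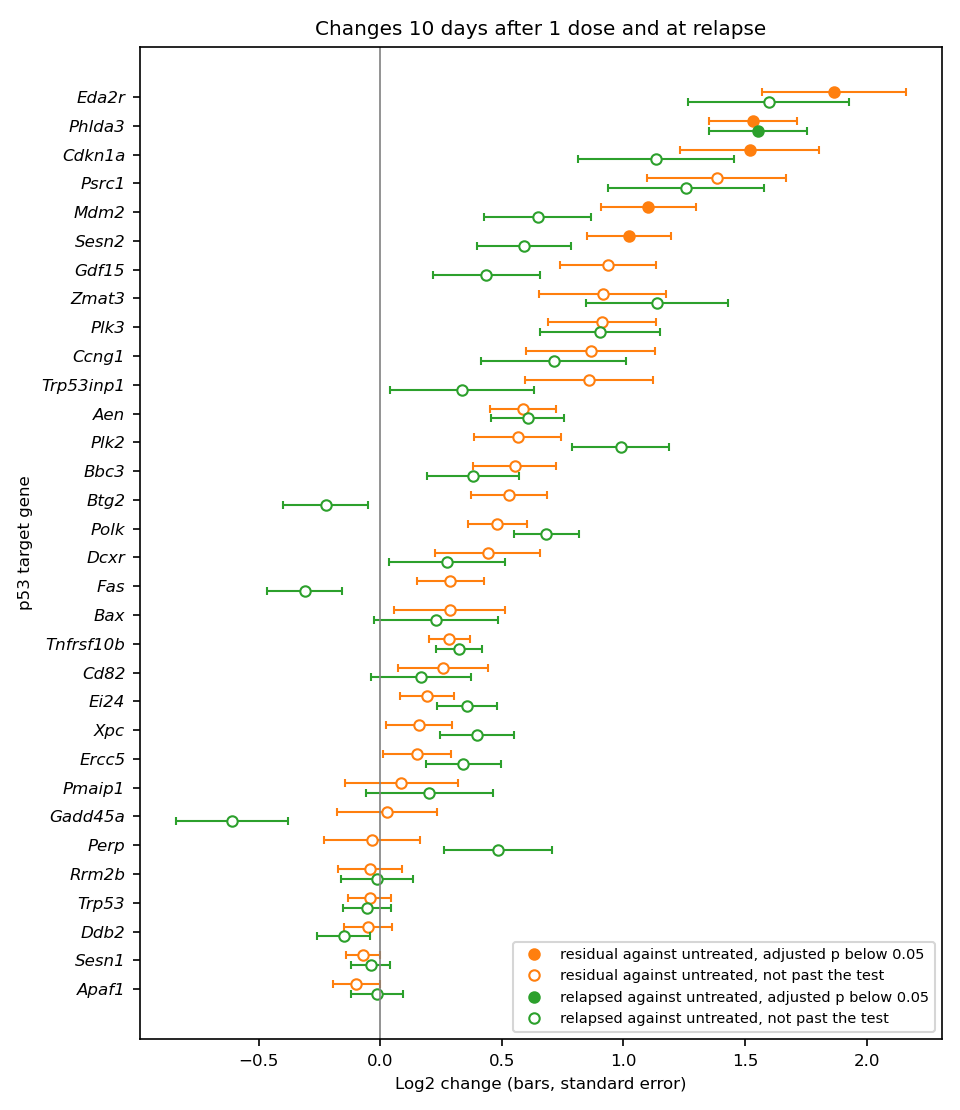
Log2 change of each p53 target gene in residual (orange) and relapsed (green) tumors against untreated tumors, with bars for the standard error; filled points passed the test (limma, adjusted p below 0.05) and open points did not. 5 genes passed in residual tumors and Phlda3 in both, and Btg2, Fas and Gadd45a lie above 0 in residual and below 0 in relapsed tumors.

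Btg2 and Fas were the genes in which all 4 relapsed tumors lay below all 6 residual tumors, for Btg2 by a margin smaller than the printed decimals. Btg2 ran from 0.86 to 1.56 in residual tumors (median 1.34) and had 0.42, 0.73, 0.04 and 0.86 in relapsed replicates 1 to 4, a difference of -0.76 (adjusted p = 0.114). Fas ran from 0.30 to 0.86 in residual tumors (median 0.44) and had 0.10, -0.09, -0.38 and 0.04 at relapse, a difference of -0.60 (adjusted p = 0.188). Such a separation was seen in 0.991% of all genes.

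The relapsed tumors were uneven. Relapsed replicate 1 was the highest of its group in 18 of the 32 genes, against 27.7% of all genes, and replicates 3 and 4 were the lowest in 14 and 13. Set against the untreated mean, the median over the 32 genes was 0.72, 0.33, 0.29 and 0.17 in relapsed replicates 1 to 4, and between 0.39 and 0.57 in the residual tumors. In single untreated tumors it ran from -0.13 to 0.10. Without relapsed replicate 1 the change at relapse was 1.28 for Phlda3 (adjusted p = 0.00464) and 1.13 for Eda2r, 0.82 for Cdkn1a, 0.63 for Mdm2 and 0.39 for Sesn2. Without relapsed replicate 2 Phlda3 missed the threshold (adjusted p = 0.103), which left 0 calls at relapse.

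The tumors lay on 5 slides, of which 3 held 2 groups. With slide as a fixed block, the rises in residual tumors were 1.46 for Eda2r, 1.29 for Cdkn1a, 1.07 for Phlda3, 0.92 for Sesn2 and 0.72 for Mdm2, and none passed the test (adjusted p = 0.490 to 0.693). On the slide that held both groups (2 residual tumors and 1 untreated tumor), 26 of 32 genes were higher in residual tumors, with a median difference of 0.69. There Eda2r was 2.25 higher, Cdkn1a 1.94, Phlda3 1.31, Sesn2 1.26 and Mdm2 0.86. For Phlda3 at relapse the block gave 1.14 (adjusted p = 0.543), and the shared slide 0.90.

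Macrophage markers ran lower in the treated groups. Their mean log2 ratio had a median of 0.20 before treatment, -0.57 in residual tumors and -0.76 at relapse, with ranges of -1.04 to 1.72, -1.10 to 0.95 and -1.49 to 0.14. Neutrophil markers averaged 2.10 to 2.22 in 5 of the 6 residual tumors, above every untreated tumor (1.52 to 1.98), and 1.56 in the other. T and NK cell markers averaged -0.07 to 0.13 in 5 of the 6, above every untreated tumor (-0.44 to -0.15), and -0.32 in the other. Endothelial markers ran from -0.03 to 0.17 in residual and from 0.14 to 0.72 in untreated tumors. These 3 means rest partly on dim markers. Of 6 neutrophil markers, 3 were well above background in every untreated tumor and 2 in every residual tumor. For T and NK cells it was 2 and 3 of 6, and for endothelium 0 and 2 of 5. No gene of the 9 marker lists passed the test in these comparisons, and their part in the result was not tested. Of 18 regulators of p53 outside the 32 genes, such as Mdm4 and Atm, 0 passed the test in any chemotherapy comparison. Of 20 further p53 targets, 10 had a positive change after the first dose, and their median was 0.03, against -0.0038 over all genes. This list thus showed no general rise there. At relapse 15 of the 20 stood above untreated tumors (median 0.14, against 0.01 over all genes). In residual tumors 1 of the list, the thiamine transporter Slc19a2, rose (0.82, adjusted p = 0.0189), which is 5% against 0.204% of all genes. Tap1, a peptide transporter of antigen presentation, fell by 1.49 from residual to relapsed tumors (adjusted p = 0.0160), again 5%, against 0.279% of all genes. Of 20 cell cycle genes that are repressed downstream of p21, none passed the test. From untreated to residual tumors 0 of 20 were higher (median -0.49), 18 of 20 were higher in relapsed than in residual tumors (median 0.33), and 4 of 20 were higher in relapsed than in untreated tumors (median -0.13). Without untreated replicate 5 the first median was -0.23, with 2 of 20 higher. The sign of the last rested on single tumors, since the median was 0.14 with 18 of 20 higher without relapsed replicate 1, and 0.07 with 16 of 20 higher without untreated replicate 5. Between relapsed and residual tumors it was 0.62 without relapsed replicate 1 and 0.21 without relapsed replicate 3.

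The second question was how the same genes stood along tumor progression without chemotherapy. Adenomas shared slides with disseminated cells and carcinomas with metastases, and these pairs of groups were scanned on different days, so in the other 4 comparisons slide and scan day cannot be told apart from the group. From adenoma to carcinoma 5 of 32 genes rose and 1 fell (18.8%), where 11.9% of all genes passed the test. From adenoma to metastases 10 rose and 3 fell (40.6%, against 28.9%). From carcinoma to metastases 7 rose and none fell (21.9%, against 22.2%), a share near that of all genes. From adenoma to disseminated cells 3 rose and 1 fell (12.5%, against 20.8%). From carcinoma to disseminated cells 4 rose and 4 fell (25%, against 26.8%), and from disseminated cells to metastases 7 rose and 1 fell (25%, against 13.2%). The median change over the 32 genes was 0.14 from adenoma to carcinoma, 0.27 from adenoma to metastases and 0.11 from carcinoma to metastases. Over all genes these medians were 0.07, 0.01 and -0.05. Without carcinoma replicate 6 the first median was 0.06, no higher than that of all genes. Without metastases replicate 4 the second and the last were 0.49 and 0.42, and without metastases replicate 5 or replicate 1 the last turned to -0.12 and -0.01.

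**Figure D4:**
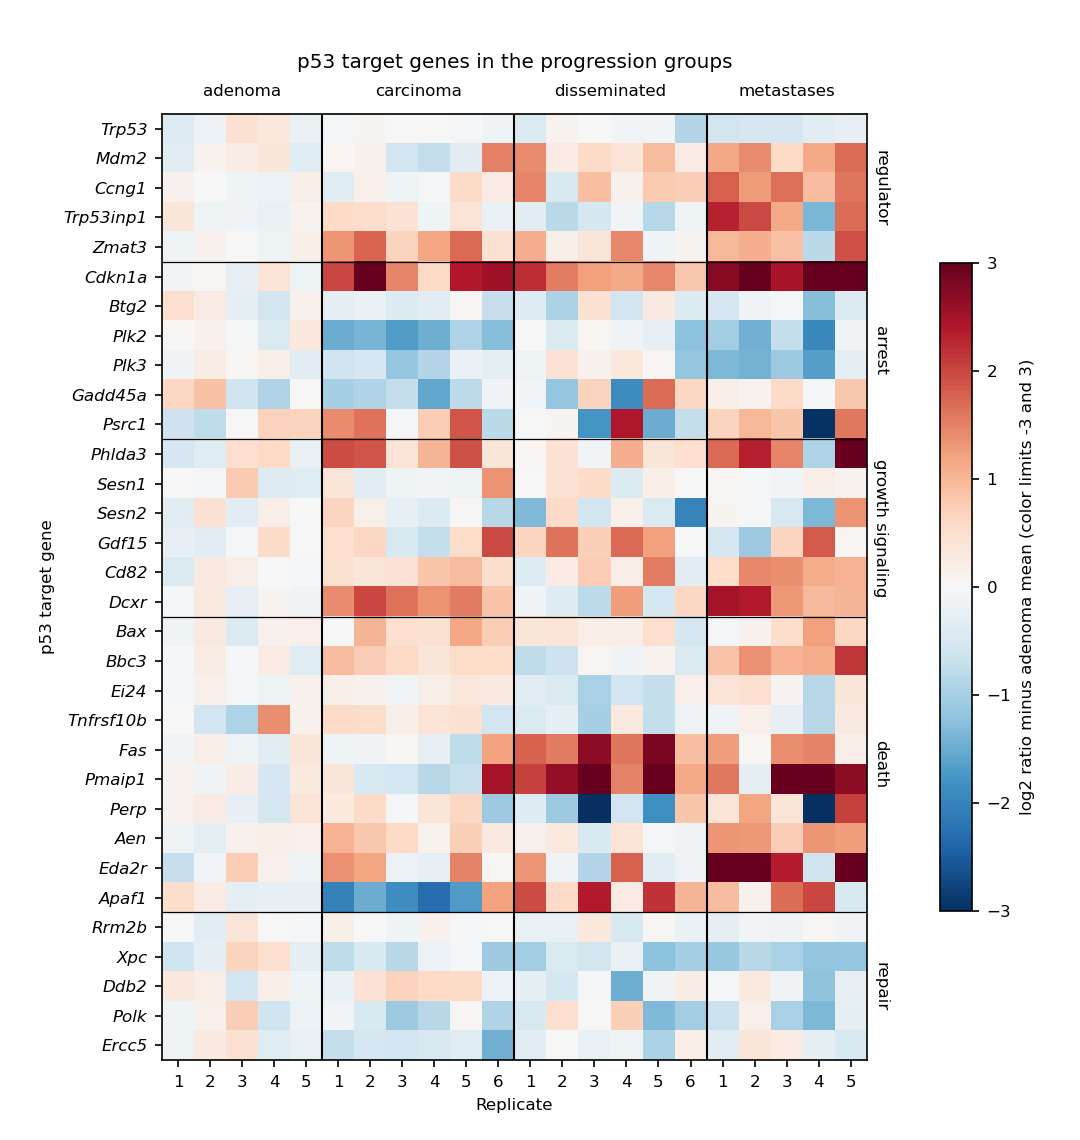
Log2 ratio of each of the 32 p53 target genes (rows, by role) in each progression sample (columns, by group and replicate), minus the mean of the 5 adenomas, with colors limited to -3 and 3. Cdkn1a is red in every carcinoma, disseminated sample and metastasis, Fas in every disseminated sample, and metastases replicate 4 is blue for Psrc1, Perp and Trp53inp1 where the other 4 metastases are not.

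Cdkn1a climbed furthest. Its log2 ratio was 0.58, 0.72, 0.40, 1.06 and 0.50 in adenoma replicates 1 to 5 and ran from 1.25 to 3.92 in carcinomas (median 2.85). Disseminated cells ran from 1.47 to 2.86 (median 1.99), and metastases had 3.38, 3.75, 3.13, 4.23 and 4.65. All samples of the other 3 groups lay above all adenomas. Cdkn1a rose by 2.05 in carcinomas (adjusted p = 0.00181), by 1.40 in disseminated cells (adjusted p = 0.0115) and by 3.18 in metastases (standard error 0.383, adjusted p = 1.79e-05), or 9.04-fold. Metastases stood 1.13 above carcinomas (adjusted p = 0.0319) and 1.78 above disseminated cells (adjusted p = 0.00355).

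The other arrest genes went down or did not pass. Plk2 had 1.62, 1.70, 1.52, 1.15 and 1.90 in adenomas and -0.09 to 0.64 in carcinomas (median 0.15), with no overlap. It fell by 1.37 in carcinomas (adjusted p = 0.00290) and by 1.05 in metastases (adjusted p = 0.00749), and stood 1.05 higher in disseminated cells than in carcinomas (adjusted p = 0.00475). Plk3 fell by 1.16 from adenoma to metastases (adjusted p = 0.00390) and by 1.10 from disseminated cells to metastases (adjusted p = 0.00947). Its metastases had 1.62, 1.53, 1.85, 1.30 and 2.69, and adenomas 2.85, 3.19, 2.99, 3.14 and 2.61, so that 1 metastasis reached the adenoma range. Btg2, Gadd45a and Psrc1 passed no progression comparison in this fit. Gadd45a rose by 1.21 from carcinoma to metastases with slide as a block (adjusted p = 0.0203), and Btg2, as the mean of its probes, fell by 1.21 from adenoma to metastases (adjusted p = 0.00388). Psrc1 varied most, from -3.05 to 1.16 in disseminated cells, and metastases replicate 4 had -4.23 where the others had -0.60 to 0.32.

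Among the regulators, Ccng1 and Mdm2 rose in metastases. Ccng1 had -1.16, -1.30, -1.42, -1.46 and -1.13 in adenomas and -1.66 to -0.73 in carcinomas (median -1.24). Metastases had 0.50, -0.01, 0.35, -0.37 and 0.32, all above every adenoma and carcinoma. The rise was 1.45 over adenomas (adjusted p = 0.000511), 1.39 over carcinomas (adjusted p = 0.00108) and 0.87 over disseminated cells (adjusted p = 0.0284). Another Ccng1 probe rose by 0.86 over adenomas (adjusted p = 0.0381 over all probes) but differed by 0.39 from carcinomas (adjusted p = 0.384).

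Mdm2 had -0.88, -0.44, -0.34, -0.19 and -0.92 in adenomas, -1.27 to 0.96 in carcinomas (median -0.69) and 0.60, 0.85, 0.04, 0.58 and 1.11 in metastases. Carcinoma replicate 6, at 0.96, was the only carcinoma that reached the metastases. Mdm2 rose by 1.19 over adenomas (adjusted p = 0.0109) and by 1.17 over carcinomas (adjusted p = 0.0124). Zmat3 rose by 1.18 from adenoma to carcinoma (adjusted p = 0.0449), with -0.90, -0.63, -0.78, -0.92 and -0.60 in adenomas and -0.32 to 0.99 in carcinomas. Trp53inp1 rose by 1.60 from disseminated cells to metastases (adjusted p = 0.0186), which had 1.71, 1.38, 0.53, -1.96 and 1.08. A dimmer Trp53inp1 probe differed by -0.76 in that comparison, so the direction rests on the brighter probe, and the mean of the probes gave 0.42 (adjusted p = 0.459).

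Trp53 passed no progression comparison in the fit without blocks. With slide as a block it fell by 0.42 from carcinoma to metastases (adjusted p = 0.0361), and the difference was -0.42 on each of the 3 slides. It had 0.10 to 0.95 in adenomas, 0.37 to 0.57 in carcinomas, -0.38 to 0.59 in disseminated cells and -0.06 to 0.24 in metastases. Metastases differed from adenomas by -0.43 (adjusted p = 0.0583), and another Trp53 probe fell by 1.93 there (adjusted p = 5.28e-05 over all probes). With the mean of probes it fell by 1.18 from adenoma to metastases (adjusted p = 0.00025).

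In growth signaling, Dcxr rose in both late stages. Adenomas had 1.36, 1.67, 1.15, 1.47 and 1.27, carcinomas 2.24 to 3.37 (median 2.87), disseminated cells 0.60 to 2.63 (median 1.14) and metastases 3.89, 3.75, 2.69, 2.35 and 2.40. Every carcinoma and metastasis lay above every adenoma. Dcxr rose by 1.47 in carcinomas (adjusted p = 0.00940) and by 1.63 in metastases (adjusted p = 0.00195), and disseminated cells stood 1.46 below carcinomas (adjusted p = 0.00281). Of the other Dcxr probes 1 gave 1.36 in metastases over adenomas and 1 gave -0.07.

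Cd82 had -1.53, -0.84, -0.89, -1.09 and -1.15 in adenomas and -0.55, 0.35, 0.30, 0.01 and -0.06 in metastases, and rose by 1.11 without overlap (adjusted p = 0.00554). Phlda3 had -2.99, -2.85, -1.96, -1.89 and -2.69 in adenomas and -0.79, -0.14, -1.01, -3.40 and 0.74 in metastases. It rose by 1.56 (adjusted p = 0.0360) although metastases replicate 4 was below every adenoma. Sesn2, which rose after chemotherapy, differed by -0.09 between metastases and adenomas, and another of its probes fell by 1.95 (adjusted p = 0.000372 over all probes). Sesn1 and Gdf15 passed no progression comparison.

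**Figure D5:**
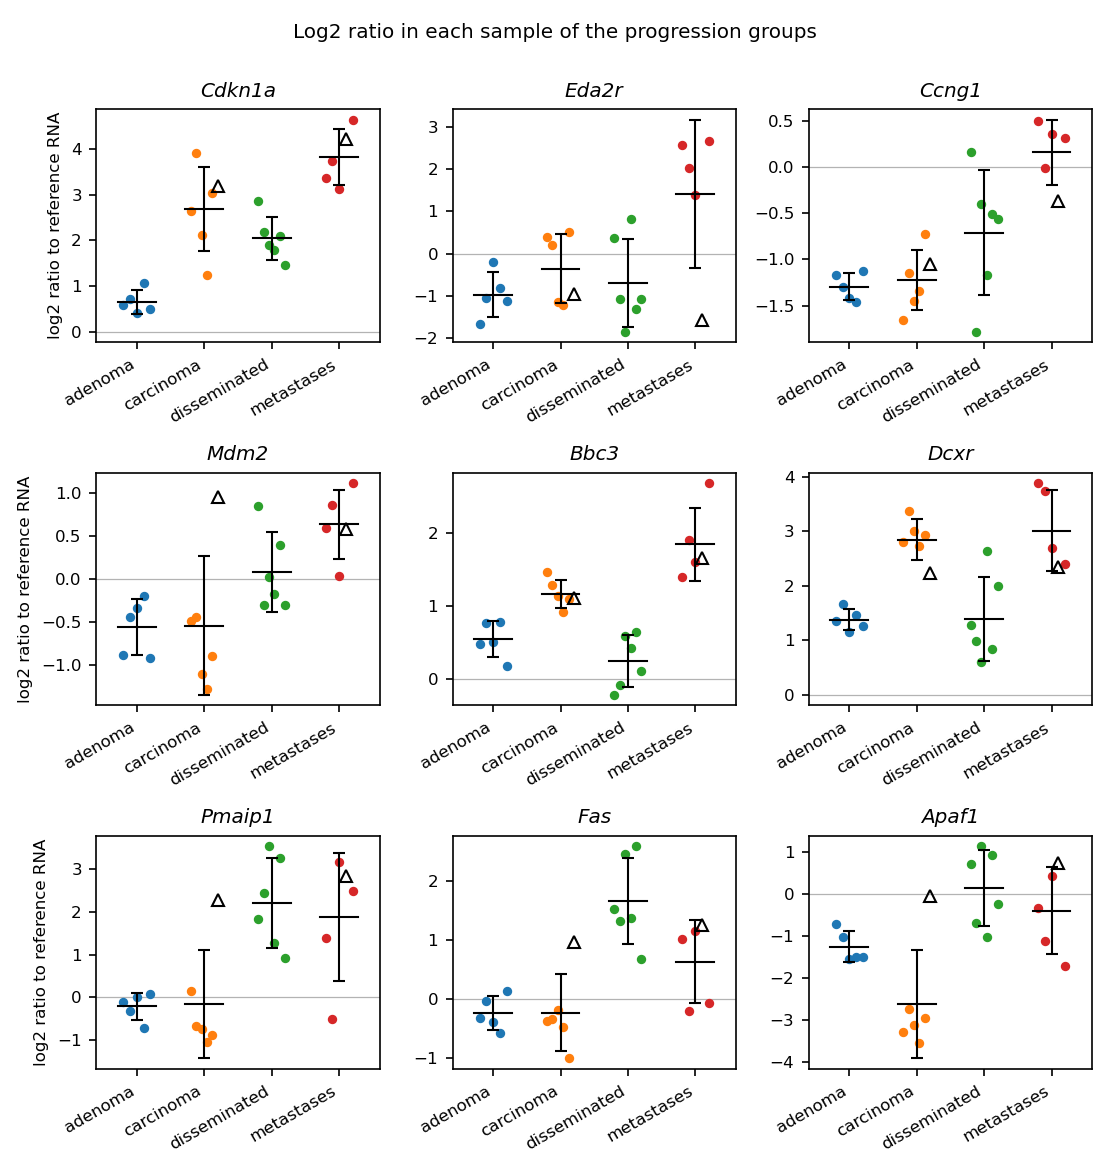
Log2 ratio to reference RNA in each progression sample for 9 p53 target genes; points are samples, open triangles carcinoma replicate 6 and metastases replicate 4, and black lines the mean with the SD (n = 5, 6, 6 and 5). Cdkn1a, Bbc3 and Dcxr lie above the adenomas in every carcinoma and metastasis, Pmaip1 and Fas above them in every disseminated sample, and carcinoma replicate 6 stands apart from the other carcinomas for Mdm2, Pmaip1, Fas and Apaf1.

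Among the death genes, Bbc3, Aen and Eda2r had their highest group mean in metastases and Pmaip1, Fas and Apaf1 in disseminated cells, although the last 3 did not pass the test between these groups. Bbc3 had 0.47, 0.76, 0.51, 0.78 and 0.18 in adenomas, 0.91 to 1.46 in carcinomas (median 1.12), -0.22 to 0.65 in disseminated cells (median 0.27) and 1.40, 1.90, 1.60, 1.65 and 2.68 in metastases. Carcinomas and metastases lay above all adenomas and all disseminated cells. Bbc3 rose by 0.62 in carcinomas (adjusted p = 0.0480) and by 1.30 in metastases (adjusted p = 0.000170), and metastases stood 1.60 above disseminated cells (adjusted p = 9.17e-05) and 0.68 above carcinomas (adjusted p = 0.0191).

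Aen was also highest in metastases, with -0.12, -0.29, 0.15, 0.18 and 0.16 in adenomas and 1.33, 1.32, 0.76, 1.33 and 1.27 in metastases. It rose by 0.59 in carcinomas (adjusted p = 0.0311), by 1.19 in metastases over adenomas (adjusted p = 0.000106) and by 0.60 over carcinomas (adjusted p = 0.0171). The brighter Aen probe on chromosome 7 rose by 0.99 in carcinomas and by 1.83 in metastases over adenomas.

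Eda2r had -1.67, -1.06, -0.21, -0.81 and -1.12 in adenomas and 2.57, 2.03, 1.39, -1.58 and 2.65 in metastases. It rose by 2.38 over adenomas (adjusted p = 0.0113) and by 2.10 over disseminated cells (adjusted p = 0.0348), and 4 of 5 metastases lay above all adenomas. Metastases replicate 4 was the exception. A dimmer Eda2r probe rose by 0.68 over adenomas (adjusted p = 0.0283 over all probes). Over the alternatives run, the Eda2r rise over adenomas was 1.04 to 3.66.

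Pmaip1 had -0.11, -0.32, 0.02, -0.72 and 0.08 in adenomas, -1.04 to 2.28 in carcinomas (median -0.70), 0.93 to 3.52 in disseminated cells (median 2.14) and 1.38, -0.50, 3.16, 2.83 and 2.48 in metastases. Carcinoma replicate 6 had the 2.28, and the next carcinoma 0.15. It rose by 2.41 in disseminated cells (adjusted p = 0.0131) and by 2.08 in metastases (adjusted p = 0.0264) over adenomas. Over carcinomas it rose by 2.35 (adjusted p = 0.00841) and 2.02 (adjusted p = 0.0304).

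Fas had -0.32, -0.03, -0.39, -0.57 and 0.13 in adenomas, -0.998 to 0.97 in carcinomas (median -0.35) and 0.68 to 2.58 in disseminated cells (median 1.45). Metastases had 1.01, -0.21, 1.15, 1.25 and -0.07. All 6 disseminated samples lay above all adenomas, and the highest carcinoma was again replicate 6. Fas rose by 1.89 in disseminated cells over adenomas (adjusted p = 0.00207) and by 1.89 over carcinomas (adjusted p = 0.00078).

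Apaf1 had -0.72, -1.02, -1.53, -1.50 and -1.50 in adenomas, -3.54 to -0.05 in carcinomas (median -3.03) and -1.01 to 1.13 in disseminated cells (median 0.24). Metastases had -0.33, -1.12, 0.42, 0.74 and -1.72. It stood 2.75 higher in disseminated cells (adjusted p = 0.00119) and 2.21 higher in metastases (adjusted p = 0.00871) than in carcinomas, whose 5 other samples reached no higher than -2.74. Other Apaf1 probes gave 1.39 and -0.07 between disseminated cells and carcinomas. Ei24 fell by 0.65 from carcinoma to disseminated cells (adjusted p = 0.0172). Bax, Perp and Tnfrsf10b passed no progression comparison in this fit, and Perp varied from -1.77 to 2.13 in disseminated cells.

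The 3 death genes that were high in disseminated cells were set beside the macrophage markers. The mean log2 ratio of the 8 markers ran from -0.61 to -0.06 in adenomas, from -1.01 to 5.11 in carcinomas, from 3.20 to 5.58 in disseminated cells and from 0.72 to 5.63 in metastases. In metastases replicates 1 to 5 it was 3.77, 0.72, 4.84, 5.63 and 0.89. Fas and Apaf1 were lowest in metastases replicates 2 and 5 and Pmaip1 in replicate 2, and in carcinomas all 3 genes were highest in replicate 6, whose marker mean was 5.11. In other values the order differed. Pmaip1 was higher in metastases replicate 5 than in replicate 1, where the marker mean was higher. Apaf1 differed by -1.36 between carcinomas and adenomas, whose marker means had medians of -0.28 and -0.33. That difference did not pass the test in this fit, and carcinoma replicate 6, at -0.05, lay above every adenoma. All 8 markers rose from adenoma to disseminated cells, 7 of 8 from adenoma to metastases and 3 of 8 from carcinoma to metastases. 4 alveolar macrophage markers averaged 4.37 to 6.42 in disseminated cells and 2.46 to 5.24 in metastases, against -0.12 to 0.23 in adenomas, where Siglecf was not well above background. Lung epithelial markers (5 genes) averaged 2.37 to 4.02 in disseminated cells and 1.95 to 3.22 in metastases, above every adenoma (0.33 to 1.51) and carcinoma (0.59 to 1.29), and 3 of 5 rose in each group over adenomas. Neutrophil markers averaged 2.57 to 4.77 in disseminated cells and 1.55 to 2.11 in adenomas, and endothelial markers 0.70 to 2.41 and 0.05 to 0.65, with 3 of 6 and 3 of 5 risen. In every adenoma 3 of 6 neutrophil, 2 of 5 endothelial and 1 of 5 lung epithelial markers were well above background. Mammary epithelial markers ran lower in disseminated cells, where 0 of 9 were higher than in carcinomas (median -1.87). Of these 4 fell, or 44.4%, against 26.8% of all genes called in that comparison. The sort had selected GFP-positive cells. The part of these markers in the result was not tested.

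Without carcinoma replicate 6 and metastases replicate 4, the carcinoma with high macrophage markers and the metastasis with low mammary markers, 7 genes were called from adenoma to carcinoma (21.9%, against 12.5% of all genes in the same setting), 15 from adenoma to metastases (46.9%, against 26.0%), 15 from carcinoma to disseminated cells (46.9%, against 31.9%) and 13 from disseminated cells to metastases (40.6%, against 17.1%). The 7 calls from adenoma to disseminated cells (21.9%, against 23.9%) and the 7 from carcinoma to metastases (21.9%, against 24.1%) were below the share of all genes. From carcinoma to metastases Eda2r (2.40) and Trp53inp1 (1.41) then passed, while Cdkn1a (1.13, adjusted p = 0.0540) and Aen (0.50, adjusted p = 0.0653) did not. From adenoma to metastases Trp53inp1 (1.77) and Zmat3 (1.22) also passed, and Bbc3 missed the threshold from adenoma to carcinoma (adjusted p = 0.0620). Both left-out samples were chosen after seeing the data. Metastases replicate 4 also had the highest macrophage mean of the metastases. Disseminated replicate 3, with low mammary markers, and disseminated replicate 6, with the lowest correlation, were kept.

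The calls also differed in how they bore the loss of 1 sample. Those of Cdkn1a, Dcxr and Plk2 in carcinomas were kept in 11 of 11 cases, whereas Bbc3 and Zmat3 there were each kept in 1 of 11 and Aen in 5 of 11. In metastases over adenomas, 8 of the 10 rises were kept in 10 of 10 cases, Pmaip1 in 6 and Phlda3 in 3. Cdkn1a in metastases over carcinomas was kept in 5 of 11 and Pmaip1 in 4 of 11, and Eda2r in metastases over disseminated cells in 4 of 11, Ccng1 in 6 of 11 and Trp53inp1 in 9 of 11. Xpc in disseminated cells was kept in 7 of 11.

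Of the repair genes, Xpc, the damage sensor of nucleotide excision repair, fell. It had -0.39, -0.06, 0.88, 0.69 and -0.07 in adenomas and -0.93, -0.63, -0.76, -0.97 and -0.94 in metastases, without overlap. The fall was 1.06 in metastases (adjusted p = 0.00339) and 0.75 in disseminated cells (adjusted p = 0.0287). Another Xpc probe differed by -0.39 between metastases and adenomas (adjusted p = 0.367 over all probes). Ercc5 lay lower in every carcinoma than in any adenoma, at -0.68 (adjusted p = 0.0501). Ddb2, Polk and Rrm2b passed no progression comparison.

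Comparisons within slides could be made for 2 of the 6 pairs. With slide as a block, all 7 calls between metastases and carcinomas were kept, at 0.59 for Aen, 0.68 for Bbc3, 1.18 for Cdkn1a, 1.26 for Mdm2, 1.42 for Ccng1, 1.98 for Pmaip1 and 2.30 for Apaf1. So were the 4 calls between disseminated cells and adenomas, at 1.42 for Cdkn1a, 1.94 for Fas, 2.44 for Pmaip1 and -0.85 for Xpc. With the block, Gadd45a (1.21, adjusted p = 0.0203) also rose and Trp53 (-0.42, adjusted p = 0.0361) fell from carcinoma to metastases. That made 9 calls of 32, where 6990 of 27962 genes passed in the same setting. Ccng1 (0.69, adjusted p = 0.0258) rose from adenoma to disseminated cells, for 5 calls of 32, where 7141 of 27962 genes passed. Within each slide the 11 kept differences kept their sign on every slide, except Pmaip1 on the slide of carcinoma replicate 6, at -1.20.

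Of the 18 regulators of p53, 4 fell from adenoma to carcinoma (Chek1, Usp7, Ppm1d and Rfwd2), or 22.2%, where 11.9% of all genes passed the test. From adenoma to metastases 3 rose and 3 fell (33.3%), near the 28.9% of all genes. There Hipk2, a kinase that phosphorylates p53, rose by 2.00 (adjusted p = 0.00131), Topors, a ligase of p53, by 0.78 (adjusted p = 0.0177) and Mdm4, the partner of Mdm2, by 0.60 (adjusted p = 0.0256). From carcinoma to metastases 4 of the 18 rose and none fell (22.2%), which was no more than the 22.2% of all genes. Of these, Atm, the kinase of the double-strand break response, rose by 1.46 (adjusted p = 0.00607). Of the 20 further targets, 5 (25%, against 11.9%) rose from adenoma to carcinoma, led by Ddit4 (3.13, adjusted p = 0.00980), an inhibitor of mTORC1, and Rprm (2.80, adjusted p = 0.0215), a mediator of arrest. From adenoma to metastases 7 rose and 3 fell (50%, against 28.9%), with Rprm (3.13) and Sfn (2.10) among the rises. Of the 20 cell cycle genes repressed downstream of p21, 9 fell from adenoma to carcinoma (45%), 13 to disseminated cells (65%) and 14 to metastases (70%), and none rose in these 3 comparisons. The shares of all genes that passed, in either direction, were 11.9, 20.8 and 28.9%. Between carcinomas and metastases 1 of the 20 fell (5%, against 22.2%).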

How the data were processed

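Per spot, the authors deposited unnormalized intensities of both channels (mean signal and local background, Agilent Feature Extraction 10.7). The authors also deposited log2 ratios after their own background correction and normalization. From the intensities, normexp background correction (offset 50), within-array loess and, for each experiment apart, between-array quantile normalization were run in limma 3.58.1 (R 4.3.3, statmod 1.5.0). Control spots had weight 0, outlier-flagged spots were left out, replicate spots averaged, and the brightest probe stood for its gene. The study's methods name normexp, loess, quantile normalization and limma. The offset and the handling of spots, probes and experiments were chosen here and are not given in the sources used here. The precision is limited by the number of arrays.

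All groups of an experiment entered 1 limma fit without covariates, with Benjamini-Hochberg adjustment over 27962 genes. A gene passed the test at an adjusted p below 0.05. All 32 members were named, and other lists by counts and their largest changes. Members and lists were chosen with earlier results of these data known. Alternatives were an offset of 0, processed signals, median centring, Aquantile or no normalization between arrays, joint normalization, only probes well above background, the authors' deposited log2 ratios, the mean of probes, a slide block (fixed or random), a block on replicate number, a fit of only the groups compared, a t-test without moderation, an adjusted p below 0.01 and each replicate left out. The fit was tested on simulated data. 0 columns belonged to unlisted samples. Probe positions are those of mm7 in the file headers, and promoters those of GRCm38.p6.

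Samples were not treated as paired by replicate number. Correlations of same-numbered samples ran from -0.416 to 0.425, a range that cannot settle whether any were paired.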

Additional observations from a re-analysis of the deposited data

Results flagged for a closer look

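In 15 of 224 sets of values (32 genes in 7 groups), or 6.70%, the highest or lowest sample stood apart from the rest of its group by more than Dixon's test allows, and chance gives about 1 in 20. In untreated tumors these were Cdkn1a in replicate 5 (-0.92, nearest other 0.13) and Sesn1 in replicate 2 (-1.32, nearest other -1.52). In relapsed tumors they were Ei24 and Aen in replicate 1 (1.62 and 1.60, nearest others 1.14 and 0.88), Cd82 in replicate 3 (-0.61, nearest other 0.40) and Pmaip1 in replicate 4 (-0.76, nearest other -0.32). In carcinomas all 4 lay in replicate 6, the sample with the high macrophage markers. They were Pmaip1 (2.28, nearest other 0.15), Apaf1 (-0.05, nearest other -2.74), Tnfrsf10b (-0.50, nearest other 0.25) and Ercc5 (-2.87, nearest other -2.14). In disseminated cells all 3 lay in replicate 6, with Bax at -2.09 (nearest other -1.40), Plk2 at 0.35 (nearest other 1.15) and Plk3 at 1.80 (nearest other 2.80). In metastases they were Aen in replicate 3 (0.76, nearest other 1.27) and Psrc1 in replicate 4 (-4.23, nearest other -0.60).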

How the results depend on the processing

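No gene that passed a test changed direction under the alternatives run. Of 5 rises in residual tumors, 1 was left at an adjusted p below 0.01, 2 with an offset of 0, 2 with processed signals, 2 with the t-test without moderation, 0 with slide as a fixed block and 3 with the replicate block, while 8 passed with only the groups compared in the fit. Among all 27962 genes 57 passed in the main fit. In these settings, in the same order, 5, 17, 25, 11, 1, 19 and 76 passed. The single rise at relapse became 0 under each of these except processed signals. Over all genes the 5 calls at relapse became 1 with only the groups compared, stayed at 5 with processed signals and became 0 in the rest. An adjusted p below 0.01 left 3 calls from adenoma to carcinoma, 1 from adenoma to disseminated cells, 2 from carcinoma to metastases and 5 from disseminated cells to metastases, where only the groups compared and the t-test each left 3. Of all 27962 genes, 1031, 2451, 2947 and 1521 passed below 0.01 in these comparisons, in the same order. From disseminated cells to metastases 1074 passed with only the groups compared and 277 with the t-test. The replicate number as a block moved no count of calls by over 1.5 times beyond those above. Leaving out 1 sample at a time gave 2 to 4 calls in residual tumors (2 without untreated replicates 3, 4 or 5 or residual replicates 2 or 4), 0 to 2 at relapse (0 without relapsed replicate 2, 2 without relapsed replicate 4) and 0 to 0 between relapsed and residual tumors. It gave 3 to 6 from adenoma to carcinoma, 3 to 5 to disseminated cells and 11 to 14 to metastases, 8 to 10 from carcinoma to disseminated cells, 5 to 8 from carcinoma to metastases and 6 to 12 from disseminated cells to metastases (12 without metastases replicate 4). Shares of all genes with 1 sample left out are not given, so these ranges do not set the 32 genes apart. The setting without carcinoma replicate 6 and metastases replicate 4 was chosen after seeing the data. It gave 7 calls from adenoma to disseminated cells (21.9%, against 23.9% of all genes), 15 from carcinoma to disseminated cells (46.9%, against 31.9%) and 13 from disseminated cells to metastases (40.6%, against 17.1%). Genes not well above background on every array, 6 in adenomas, have less certain ratios there.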
